A study of Mus musculus with 6 samples.

Results

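The Z-disc is the structure that borders each sarcomere and anchors the actin filaments of 2 neighbouring sarcomeres, and 10 genes for its proteins are described here, namely Myoz2, Myoz1, Myot, Tcap, Ldb3, Actn2, Actn3, Pdlim3, Pdlim5 and Pdlim7. They were taken by gene symbol from the array's annotation, with the probe set of the highest mean kept for each gene. Of the 10, 9 were measured among 19505 genes, each by 1 probe set, and Pdlim7 was not analysed here. The cells were C2C12, an established mouse myoblast line that fuses into myotubes when serum is lowered, and RNA was taken on day 3 in medium with 2% horse serum. The 3 groups had 2 Clariom S arrays each, 6 in all. Non-transduced + Dox cells carried no virus and received doxycycline, uninduced cells carried a lentivirus with a doxycycline-inducible MyoD cDNA and a blasticidin resistance gene and received no doxycycline, and MyoD + Dox cells carried the same virus and received doxycycline. MyoD + Dox and uninduced cells thus differed in the drug as well as in the transgene it switches on, and MyoD + Dox and non-transduced + Dox cells differed in the virus and the blasticidin selection as well as in MyoD. Whether both arrays of a group stem from independent cultures is not in the labels. Each p-value therefore measures the spread between these arrays, which may be technical.

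Alpha-actinin, encoded in muscle by Actn2 and Actn3, crosslinks the ends of actin filaments at the Z-disc and gives the structure its lattice. Around it sit the myozenins (Myoz1 and Myoz2, also called calsarcins), which bind alpha-actinin and the phosphatase calcineurin, myotilin (Myot), which binds alpha-actinin and filamin, telethonin (Tcap), which caps the ends of titin, and the PDZ and LIM domain proteins Ldb3 (also called ZASP or Cypher), Pdlim3 (ALP), Pdlim5 (ENH) and Pdlim7 (Enigma). MyoD is a basic helix-loop-helix transcription factor that drives myoblasts into differentiation and binds E-boxes in the regulatory DNA of muscle genes, often together with MEF2 factors. Many Z-disc genes are switched on during differentiation, and variants in several of them cause muscle disease in people.

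RefSeq windows before the start site were held for 6 of the 10 members, in 8 windows on build GRCm38.p6. The 4 shown here belong to 3 of the 4 genes whose signals ran most closely together over the arrays and, as a contrast, to Pdlim5, which varied least among the members above background. Each line gives the 250 bases before the start site, 5' to 3' on the gene's strand, which is the minus strand in all 4. Capitals mark E-boxes (CANNTG), a MEF2 consensus or a CArG box, the site type of serum response factor.
Myoz2, chr3:123034988-123035237: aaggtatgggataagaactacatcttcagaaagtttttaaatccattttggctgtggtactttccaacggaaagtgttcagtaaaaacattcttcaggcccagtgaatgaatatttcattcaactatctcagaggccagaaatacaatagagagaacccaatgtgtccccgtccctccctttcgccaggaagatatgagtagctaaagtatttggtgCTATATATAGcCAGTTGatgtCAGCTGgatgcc
Ldb3, chr14:34588682-34588931: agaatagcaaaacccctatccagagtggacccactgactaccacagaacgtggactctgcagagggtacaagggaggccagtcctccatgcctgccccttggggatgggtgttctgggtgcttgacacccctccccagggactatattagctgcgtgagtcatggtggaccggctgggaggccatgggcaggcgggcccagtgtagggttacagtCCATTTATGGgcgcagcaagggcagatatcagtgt
Actn2, chr13:12340733-12340982: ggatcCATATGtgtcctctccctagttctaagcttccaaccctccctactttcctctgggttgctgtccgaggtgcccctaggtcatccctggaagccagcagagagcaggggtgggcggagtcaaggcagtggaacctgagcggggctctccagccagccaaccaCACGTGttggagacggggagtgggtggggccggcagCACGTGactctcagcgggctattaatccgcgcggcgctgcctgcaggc
Pdlim5, chr3:142395697-142395946: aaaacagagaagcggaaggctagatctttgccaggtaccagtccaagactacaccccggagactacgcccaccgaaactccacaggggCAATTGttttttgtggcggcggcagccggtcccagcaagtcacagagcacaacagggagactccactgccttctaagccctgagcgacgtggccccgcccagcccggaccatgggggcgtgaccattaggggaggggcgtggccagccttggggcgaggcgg
The Myoz2 window held 3 matches close together. A MEF2 consensus, CTATATATAG, lay 33 to 24 bases before the start site, followed by the E-boxes CAGTTG at 22 to 17 bases and CAGCTG at 12 to 7 bases. The Ldb3 window held a CArG box, CCATTTATGG, 35 to 26 bases before the start site and no E-box. In the second RefSeq window of Ldb3, not shown, the same box lay 109 to 100 bases before that window's start site. In the Actn2 window, 3 E-boxes were found, CATATG at 245 to 240 bases and CACGTG at both 84 to 79 and 48 to 43 bases. Pdlim5 had the E-box CAATTG at 162 to 157 bases, and its second RefSeq window had no match, nor had that of Pdlim7. The window of Pdlim3, not shown, held 2 E-boxes, CAGGTG and CAGCTG, and 2 matches to the M-CAT motif (CATTCC, or GGAATG on the other strand), the site type of TEAD factors. Both strands were searched, and CAGCTG is also counted as an E-box. Of 32851 RefSeq windows of this length, 66.2% held an E-box, 13% held CAGCTG, 12.6% held M-CAT, 2.92% held the MEF2 consensus and 1.47% held a CArG box. A match describes the letters in the window and shows no binding.

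Between 9355 and 9546 genes per array lay above the array's background, the 90th percentile of 23 background probe sets, at a log2 signal of 6.01 to 6.15. The gene the virus carries, Myod1, had a log2 signal of 8.72 and 10.68 on the non-transduced + Dox arrays, 8.996 and 7.91 on the uninduced arrays, and 11.51 and 12.54 on the MyoD + Dox arrays, and the transgene and the cells' own gene cannot be told apart on this probe set. Both MyoD + Dox arrays were above the other 4. The 2 non-transduced + Dox arrays stood furthest apart, with 15.0% of all genes more than 2-fold apart, against 3.79% between the uninduced and 3.02% between the MyoD + Dox arrays. All 6 markers of differentiated muscle (Myog, Mymk, Ckm, Acta1, Des and Myh3) were above background on every array. Their summed signal was 18.59 and 20.23 on the log2 scale in non-transduced + Dox cells, 18.47 and 16.53 in uninduced cells, and 19.59 and 19.68 in MyoD + Dox cells, so it moved with the Z-disc members described next, and its part in their differences was not tested. Of 5 markers of myoblasts and reserve cells, 4 were above background on at least 1 array and Pax7 on none, with a sum of 15.19 and 12.47, 14.83 and 15.15, and 14.39 and 13.17 in the same order. Vcam1 carried most of that sum, at 15.14 and 9.38, 14.73 and 15.12, and 14.25 and 12.73. Cdh15, which is also expressed in myotubes, ran the other way with the Z-disc members, at 8.83 and 11.98, 9.05 and 6.83, and 10.62 and 10.90, as did Spry1, with 5 of 6 arrays above background. Myf5, above background on all 6 arrays, had 9.485 and 9.14, 10.28 and 9.39, and 8.08 and 7.885. Its MyoD + Dox arrays were both below the other 4. None of the measured markers of macrophages, endothelium or cardiac muscle was above background on any array, 1 adipocyte marker (Cebpa) and 1 marker of osteoblasts and chondrocytes (Acan) were above it on some, and 3 of 4 smooth muscle markers were, of which Acta2 and Smtn were on all arrays. In a bulk culture, fewer myotubes and less RNA of a gene per myotube cannot be told apart.

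**Figure D1:**
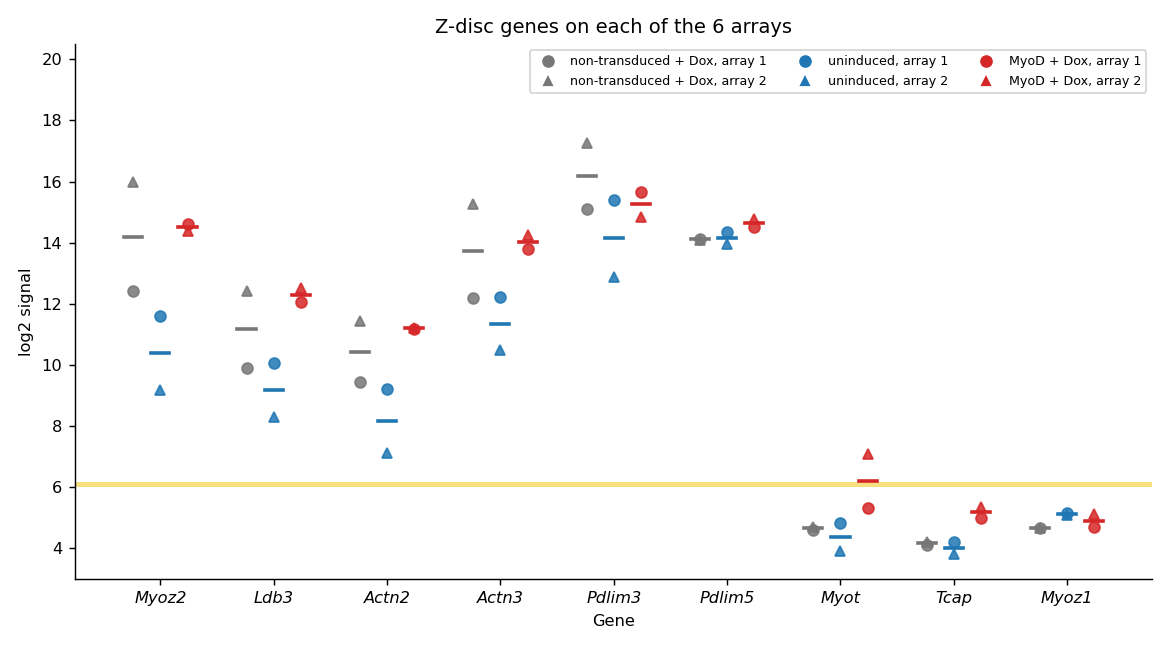
Log2 signal of the 9 measured Z-disc genes (x axis) on each array, with circles for array 1 and triangles for array 2 of a group, a bar at each group mean, and a yellow band over the range of the array backgrounds (6.01 to 6.15). Myoz2, Ldb3, Actn2, Actn3 and Pdlim3 spread widely within the non-transduced + Dox and uninduced groups, and Myot, Tcap and Myoz1 lie at or below the background on nearly all arrays.

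Of the 9 measured members, 6 were above background on all 6 arrays (Myoz2, Ldb3, Actn2, Actn3, Pdlim3 and Pdlim5). Myoz1 and Tcap were not above background on any array, and Myot was above it on 1, the second MyoD + Dox array. The second uninduced array gave the lowest value of all 6 arrays for each of those 6. The mean log2 signal over the 9 members was 10.36 ± 1.06 (SD, n = 2) in non-transduced + Dox cells, 8.98 ± 0.97 in uninduced cells and 10.91 ± 0.21 in MyoD + Dox cells.

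Between the lowest and the highest array, Myoz2 spanned 6.80 on the log2 scale, Actn3 4.79, Pdlim3 4.37, Actn2 4.32 and Ldb3 4.21, against 0.82 for Pdlim5. Myoz2, the myozenin of slow and cardiac muscle, had a log2 signal of 12.42 and 15.98 in non-transduced + Dox cells, 11.59 and 9.18 in uninduced cells, and 14.61 and 14.39 in MyoD + Dox cells. The MyoD + Dox arrays lay above both uninduced arrays and between the 2 non-transduced + Dox arrays. Its difference between MyoD + Dox and uninduced cells was 4.12 (SE 1.28), or 17.4-fold, which placed it 20th from the top of 19505 genes. The adjusted limma p was 0.670, and the difference was 2.91 without the second uninduced array and 5.32 without the first. Against non-transduced + Dox cells the MyoD + Dox mean differed by 0.30 (SE 1.28), and the uninduced mean was lower by 14.1-fold, with both uninduced arrays below both others and an adjusted limma p of 0.637.

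Ldb3, which links alpha-actinin to kinases at the Z-disc, had 9.90 and 12.43 in non-transduced + Dox cells, 10.05 and 8.29 in uninduced cells, and 12.07 and 12.50 in MyoD + Dox cells. The MyoD + Dox arrays lay above both uninduced arrays, and overlapped with the non-transduced + Dox arrays. The difference of 3.12 (SE 0.93) between MyoD + Dox and uninduced cells was 8.69-fold, with an adjusted limma p of 0.670. With 1 array left out it ran from 2.24, when uninduced array 2 was missing, to 3.996, when uninduced array 1 was. Uninduced and non-transduced + Dox cells differed by -1.995 (SE 0.93) and overlapped.

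Actn2, the alpha-actinin found in all striated muscle fibres, had 9.43 and 11.44 in non-transduced + Dox cells, 9.22 and 7.12 in uninduced cells, and 11.19 and 11.21 in MyoD + Dox cells. Here both uninduced arrays were below the other 4. MyoD + Dox cells were 8.16-fold above uninduced cells, a difference of 3.03 (SE 0.87) that ran from 1.98 to 4.08 with either uninduced array left out, and uninduced cells were 4.80-fold below non-transduced + Dox cells. Actn3, the alpha-actinin of fast glycolytic fibres, had 12.17 and 15.27, 12.23 and 10.48, and 13.80 and 14.24 in the same order of groups. Its MyoD + Dox arrays were again above both uninduced arrays and within the non-transduced + Dox range. Their difference of 2.67 (SE 1.07) was 6.35-fold, and it ran from 1.79 to 3.54 in the same way. The log2 ratio of Actn2 to Actn3 changed by 0.36 between uninduced and MyoD + Dox cells, less than the 1.08 by which it differed between the 2 non-transduced + Dox arrays.

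Pdlim3 and Pdlim5 both bind alpha-actinin through a PDZ domain, and their values were unlike. Pdlim3, which is largely restricted to muscle, had 15.11 and 17.25 in non-transduced + Dox cells, 15.39 and 12.89 in uninduced cells, and 15.67 and 14.83 in MyoD + Dox cells. The MyoD + Dox arrays overlapped with those of both other groups. Its difference of 1.11 (SE 1.02) from uninduced cells and -0.93 (SE 1.02) from non-transduced + Dox cells was about as large as its error in each case. Pdlim5, which also binds protein kinase C, had 14.13 and 14.08, 14.36 and 13.94, and 14.53 and 14.76 in the same order of groups. Although these differences were small, both MyoD + Dox arrays exceeded the other 4. They were 1.41-fold above uninduced cells (a log2 difference of 0.49, SE 0.23) and 1.45-fold above non-transduced + Dox cells (0.54, SE 0.23).

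The remaining 3 members lay at or below background. Myot had 4.59 and 4.71 in non-transduced + Dox cells, 4.83 and 3.90 in uninduced cells, and 5.33 and 7.09 in MyoD + Dox cells. Only the last of these was above background, so its difference of 1.84 (SE 0.62) from uninduced cells stands on 1 of 2 arrays. With the arrays of the other group raised to their background, the MyoD + Dox mean was 1.14-fold above uninduced cells and 1.11-fold above non-transduced + Dox cells. That mean includes the first MyoD + Dox array as measured, which was itself below background. These folds are therefore no lower bounds. Tcap had 4.12 and 4.22, 4.21 and 3.80, and 4.99 and 5.36, with no array above background, and no fold is given. Myoz1, the myozenin of fast fibres, had 4.65 and 4.65, 5.14 and 5.08, and 4.69 and 5.11, all below background. Values below background have no order, so no order is read for Tcap and Myoz1, and for Myot only that 1 array stood above the rest.

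**Figure D2:**
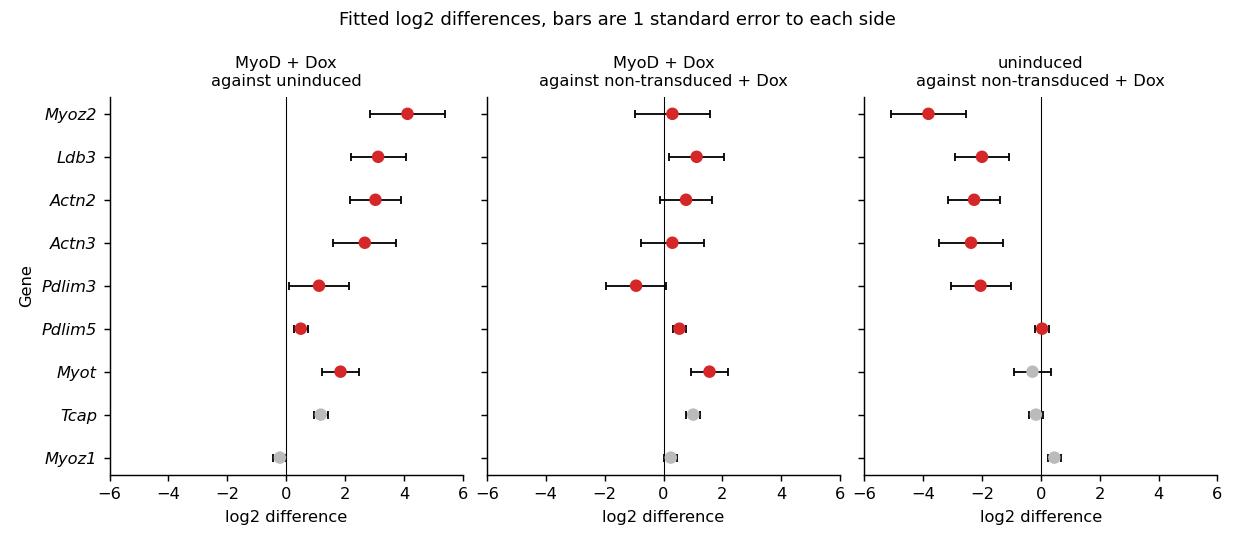
Fitted log2 differences (x axis) of the 9 measured Z-disc genes in the 3 comparisons, with bars of 1 standard error to each side, red where at least 1 array of the 2 groups was above background and grey where none was. Myoz2, Ldb3, Actn2 and Actn3 lie at 2.67 to 4.12 for MyoD + Dox against uninduced cells and at 0.30 to 1.12 for MyoD + Dox against non-transduced + Dox cells.

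Counted over the 9 members, MyoD + Dox cells gave a higher mean than uninduced cells for 8, beside 9545 of all 19505 genes. The 3 members at or below background are among the 9. The median difference was 1.84 against -0.0092 over all genes. That median is the value of Myot, and it was 1.11 with signals raised to the array background. At an unadjusted limma p below 0.05, 6 members were higher (Myoz2, Ldb3, Actn2, Actn3, Myot and Tcap) and 0 lower, where 4.22% of all genes were higher and 3.19% lower. Tcap and Myot among these were at or below background as given above. Both MyoD + Dox arrays lay above both uninduced arrays for 5 of the 6 members above background on all arrays, Pdlim3 being the exception, and below them for 0, where the shares over all genes were 23.8% and 24.8%. With Benjamini-Hochberg adjustment over all genes, 0 members and 0% of genes passed, and the members' adjusted p ran from 0.670 to 0.795. The count of 6 fell without the second uninduced array and without either MyoD + Dox array. The share of all genes higher fell in these settings too. The members' median difference was 1.38 without uninduced array 2 and 2.36 without uninduced array 1. It was 2.73 without MyoD + Dox array 1 and 1.54 without MyoD + Dox array 2. The count was 3 (Ldb3, Actn2 and Pdlim5) where signals below the array background were raised to it. The share over all genes in that setting is not given, so this count has nothing to stand beside. There Pdlim5 entered at an unadjusted limma p of 0.045 and Myoz2 left at 0.0503, although their differences of 0.49 and 4.12 were unchanged. For differential expression on the arrays the study's methods name the Transcriptome Analysis Console, and that analysis was not repeated here. The 2-group test named in the methods' general statistics takes each gene's spread from its own 4 arrays. It gave 0 members, while 4.3% of all genes were higher by it.

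Between MyoD + Dox and non-transduced + Dox cells, which share the drug, the members differed less. The median difference was 0.54, or 0.30 with signals raised to background, against 0.0012 over all genes. With the 3 members at or below background counted, 8 of 9 means were higher in MyoD + Dox cells, beside 9794 of all 19505 genes. At an unadjusted limma p below 0.05, 2 members were higher, Myot and Tcap, neither with both MyoD + Dox arrays above background, and 0 lower, beside 1.6% and 1.34% of all genes. Of the 6 members above background on all arrays, both MyoD + Dox arrays were above both non-transduced + Dox arrays for 1, Pdlim5, and below for 0, beside 13.9% and 14.3% of all genes. After adjustment 0 members and 0% of genes passed. The count of 2 was lower when non-transduced + Dox array 1, either uninduced array or MyoD + Dox array 2 was dropped. It was higher when non-transduced + Dox array 2 was dropped. The share of all genes higher moved between these settings as well. The median was -0.14 without non-transduced + Dox array 1 and 1.62 without array 2. In the former case the difference turned for Myoz2 to -1.48, for Ldb3 to -0.14, for Actn2 to -0.24 and for Actn3 to -1.25, and in the latter it turned for Pdlim3 to 0.14.

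Uninduced cells, which carried the virus without the drug, had lower means than non-transduced + Dox cells for 7 of 9 members, beside 9770 of all 19505 genes. The 3 members at or below background are counted here too. The median was -1.995 against -0.00068 over all genes. At an unadjusted limma p below 0.05, 0 members were higher and 2 lower (Myoz2 and Actn2), beside 3.11% and 3.12% of all genes. Among the same 6 members, both uninduced arrays were above both non-transduced + Dox arrays for 0 and below them for 2 (Myoz2 and Actn2), beside 19.2% of all genes in each direction. After adjustment 0 members and 0% of genes passed, but 4 members (Myoz2, Ldb3, Actn2 and Actn3) were lower at an adjusted limma p below 0.05 without the first non-transduced + Dox array, which leaves 1 array in that group whose spread is assumed to be like that of the others. In that setting 11.2% of all genes passed. The median of this comparison was -3.12 without that array, -0.73 without non-transduced + Dox array 2 and -0.79 without uninduced array 2. All 3 comparisons share arrays with each other and are not independent.

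**Figure D3:**
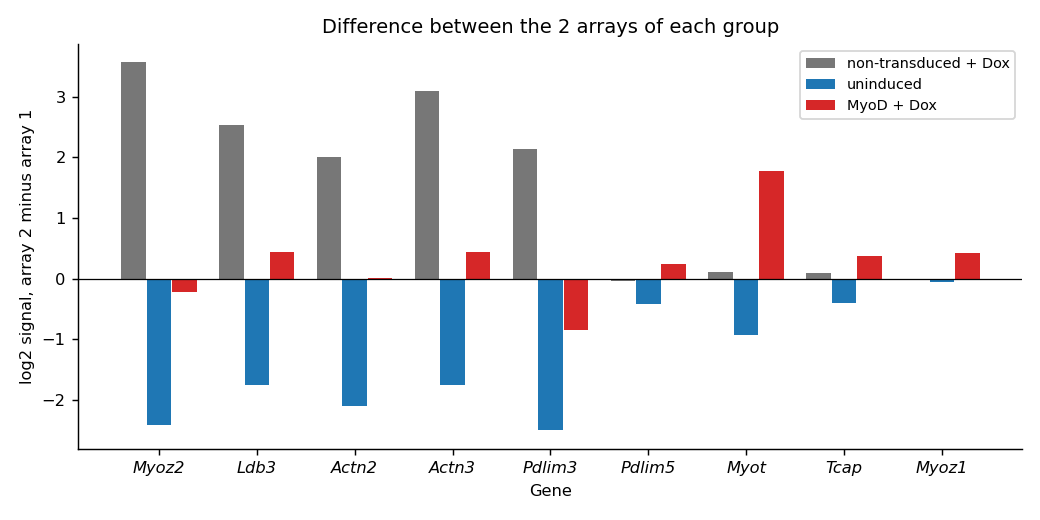
Log2 signal of array 2 minus array 1 (y axis) in each group for the 9 measured Z-disc genes (x axis). For Myoz2, Ldb3, Actn2, Actn3 and Pdlim3 the gap was upward in non-transduced + Dox cells and downward in uninduced cells, and each of these gaps was more than 2-fold.

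The 2 arrays of a group differed over the members in a joint direction. In non-transduced + Dox cells the second array was higher for 7 of 9 members, counting the 3 at or below background, beside 51.2% of all genes. The members' median gap was 2.01, beside 0.013 over all genes, with a range of -0.044 to 3.57. In uninduced cells the second array was higher for 0 of 9, beside 50.8% of all genes. The median gap was -1.75, beside 0.0069 over all genes, with a range of -2.50 to -0.056. In both groups 5 members were more than 2-fold apart, beside 15.0% and 3.79% of all genes. The MyoD + Dox arrays were closer, with a median gap of 0.37, beside 0.0053 over all genes. Only Myot was more than 2-fold apart there, beside 3.02% of all genes. Replicate numbers carry no order, and these gaps set the standard errors given above.

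Over the 6 arrays, the 6 members above background on all arrays were compared with each other, as a description. Myoz2, Ldb3, Actn2 and Actn3 ran closely together, with Pearson r between 0.964 and 0.986 for their 6 pairs. Pdlim3 had r between 0.745 and 0.862 with these 4, and Pdlim5 had r between 0.462 and 0.654. Only Pdlim5 had both MyoD + Dox arrays above the other 4, an ordering shared by 6.08% of all genes. With Myod1 itself r was 0.935 for Ldb3, 0.886 for Actn2, 0.835 for Actn3, 0.822 for Pdlim5, 0.818 for Myoz2 and 0.467 for Pdlim3. No r is given for Myot, Tcap and Myoz1. The points are the same 6 arrays throughout, so all these values share each array's state.

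The 5 genes whose signals were most like the mean of the standardized members, out of 2191 that were above background on every array and varied by an SD of at least 0.5, were Sgca, Tmem170b, Parvb, Cisd1 and Dnajc5, with r from 0.991 to 0.999 over the 6 arrays. That mean weights all 9 measured members alike, the 3 at or below background included. Sgca, which encodes alpha-sarcoglycan of the dystrophin-associated complex at the muscle membrane, came first. Its log2 signal was 8.60 and 10.88 in non-transduced + Dox cells, 9.37 and 6.93 in uninduced cells, and 10.86 and 12.00 in MyoD + Dox cells. Parvb encodes beta-parvin, an actin-binding protein of focal adhesions.

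Other Z-disc genes were read from a list of 27, all of them measured. Of 10 scaffolds and filament anchors, 5 were higher in MyoD + Dox than in uninduced cells at an unadjusted limma p below 0.05 (Neb, Synpo2l, Ttn, Synpo2 and Nexn) and 0 lower, with a median difference of 1.85, beside the 4.22% of all genes that were higher and 3.19% that were lower. The same shares apply to the next lists. Neb, the giant protein along the actin filament, showed the widest difference at 3.96 (SE 1.27), from 8.94 and 7.76 in uninduced cells to 11.82 and 12.80 in MyoD + Dox cells. Synpo2l, an actin-binding protein of the Z-disc, differed by 3.89 (SE 1.25), and Ttn, titin, by 3.29 (SE 1.23). The one nearest 0 was Palld, palladin, at 0.015 (SE 0.20). Both MyoD + Dox arrays were above both uninduced arrays for all 4 of these except Palld. Over the 10 they were above for 7 and below for 1, beside 23.8% and 24.8% of all genes. Mypn is among those 7. Both Mypn and Nebl were below background on every array of these groups, so no order is read for them.

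Of 8 signalling, LIM, chaperone and filament partners, only Des, the intermediate filament that ties Z-discs to each other, was higher at that threshold, by 2.26 (SE 0.90), with 0 lower and a median of 0.25. Des is also one of the 6 differentiated muscle markers. Csrp3, muscle LIM protein, differed by 2.18 (SE 1.74) with 1 of 2 uninduced arrays above background, Cryab, a small heat shock protein, by 1.003 (SE 0.58), and Ppp3cb, a catalytic subunit of calcineurin, which binds the myozenins, by 0.23 (SE 0.19). Ppp3ca, the other calcineurin subunit on the list, differed by -0.80 (SE 0.77). Lmcd1, a LIM and cysteine-rich domain protein, differed by -0.86 (SE 0.68) and Fhl2, a LIM protein, by -0.43 (SE 0.35). For these 3 of the 8, both MyoD + Dox arrays were below both uninduced arrays, and for 5 they were above. The shares over all genes were 24.8% below and 23.8% above. Among 9 paralogs and broader relatives, most of them not specific to muscle, 0 were higher and 0 lower, with a median of -0.0057. The widest differences were 0.77 (SE 0.51) for Pdlim4, 0.41 (SE 0.75) for Pdlim1 and -0.34 (SE 0.19) for Csrp1, and Zyx, zyxin, lay nearest 0 at -0.0057. The non-muscle alpha-actinins Actn1 and Actn4 differed by -0.28 and 0.30, beside 3.03 and 2.67 for Actn2 and Actn3. After adjustment 0 of the 27 passed in any comparison. Against non-transduced + Dox cells 0 of the 27 were higher or lower in MyoD + Dox cells at the unadjusted threshold, and 1, Synpo2, was lower in uninduced cells. As the share of all genes did, the count of 6 partner genes for MyoD + Dox against uninduced cells fell when any array of these groups was left out. It was 11 from the 4 arrays of the comparison alone, and the same without either non-transduced + Dox array, where the share of all genes higher was 8.45%. For MyoD + Dox against non-transduced + Dox cells, 3 partner genes were higher without non-transduced + Dox array 1, beside 7.55% of all genes, and 8 without array 2, beside 4.55%. For uninduced against non-transduced + Dox cells, 4 of 27 were higher without array 1, beside 12.7% of all genes.

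In the RefSeq annotation of GRCm38.p6 the myozenin genes lie in like surroundings, Myoz2 between Usp53 and Synpo2 on chromosome 3 and Myoz1 between Usp54 and Synpo2l on chromosome 14. The 2 neighbourhoods differed on these arrays. Synpo2 and Synpo2l, related actin-binding proteins, were both above background on all 6 arrays. Synpo2l had 11.60 and 14.43 in non-transduced + Dox cells, 11.63 and 8.71 in uninduced cells, and 13.54 and 14.58 in MyoD + Dox cells, while Myoz1 next to it was below background throughout. Synpo2 had 11.58 and 13.39, 10.93 and 10.44, and 12.36 and 13.04 in the same order, a difference of 2.01 (SE 0.62) between MyoD + Dox and uninduced cells, and it lay beside Myoz2 with 4.12. On the other side, Usp53 differed by 1.07 (SE 0.44) and Usp54 by -0.17 (SE 0.30).

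**Figure D4:**
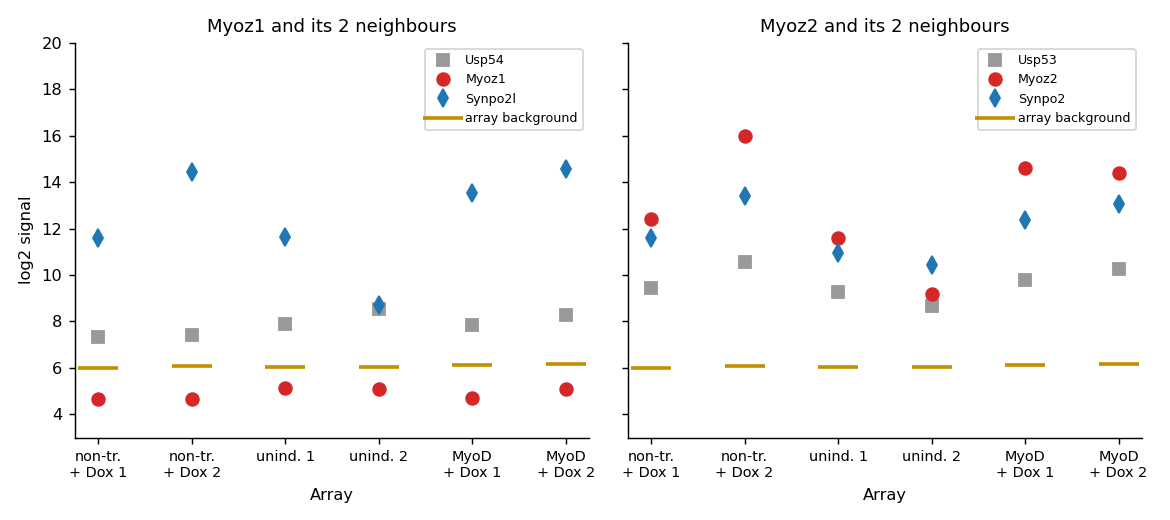
Log2 signal (y axis) of Myoz1 and Myoz2 with the gene on each side, on the 6 arrays (x axis), with a line at each array's background. Myoz1 lies below the background on all 6 arrays while Synpo2l beside it ranges from 8.71 to 14.58, and Myoz2 and Synpo2 are both lowest on the second uninduced array.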

How the data were processed

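RNA of differentiated C2C12 cells was measured on 6 Clariom S mouse arrays. Trizol extraction is given in the labels and RNeasy in the paper's methods. The authors deposited normalized signal intensity values per probe set on a linear scale with Affymetrix Expression Console, of no stated version, per the submitters' processing notes. The paper's methods name signal space transformation with robust multi-array averaging for the heat maps, and do not say whether the deposited table was made that way. The log2 of each deposited value was used, since the deposited values were linear. Normalization between arrays hides any change common to all genes.

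A single gene symbol was held by 19572 of 28846 probe sets, all matched to the mouse annotation by Entrez identifier, while 9274 carried none and 0 several. For 55 genes with several probe sets the one with the highest mean was kept. No filter on dim genes was applied. Groups came from the labels. limma 3.58.1 in R 4.3.3 (lmFit, eBayes, two-sided) was fitted to all 6 arrays, with 3 residual degrees of freedom and Benjamini-Hochberg adjustment over 19505 genes at 0.05. An exact permutation test of 2 against 2 arrays cannot give a p below 0.333 and was not used. The number of arrays limits the precision. The fit was tested on simulated data.

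The members, gene lists and tests were chosen with earlier results of these data known. Named genes are the members, Myod1, in each of 3 partner lists the 3 with the largest difference between MyoD + Dox and uninduced cells and the 1 nearest 0, and the 5 most alike. Synpo2, Nexn, Ppp3ca, Lmcd1, Fhl2, Actn1, Actn4, Usp53 and Usp54 were added after their values were seen. Alternatives were quantile normalization, median centring, leaving out the lowest 40% of genes, a robust trend, a fit of each comparison's own 4 arrays, a replicate block, averaged probe sets, the methods' t-test, signals raised to background and each array left out.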

Additional observations from a re-analysis of the deposited data

How the results depend on the processing

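Each group had 2 arrays and the fit had 3 residual degrees of freedom, so a p that misses the threshold does not show that values were alike. Values below an array's background (Myoz1 and Tcap on all arrays, Myot on 5) have no order. The cause of the changes listed here was not tested. Exceptions are fewer arrays or genes where the setting itself takes them out, and signals that the setting itself puts at the background.

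Of 561 alternative values, 520 counted as the same. A gene's difference had to keep its direction and side of the threshold, and a count had to stay within 1.5 times. A median had to move by less than its spread between replicate arrays, so a turned sign could still count as the same. The median for MyoD + Dox against non-transduced + Dox cells, with a spread of 1.28, did so when it went from 0.54 to -0.14. For MyoD + Dox against uninduced cells, the 6 members higher at an unadjusted p were 0 with the methods' t-test, 3 with signals raised to background and 1 to 7 with 1 array left out, and the 6 partner genes were 11 from the 4 arrays alone and 0 to 11 with 1 array left out. For MyoD + Dox against non-transduced + Dox cells, the 2 members were 1 with array medians subtracted, 0 without the lowest 40% of genes, 1 from the 4 arrays alone, 1 with signals raised to background and 1 to 3 with 1 array left out, and the partner count of 0 ran from 0 to 8. For uninduced against non-transduced + Dox cells, the t-test gave 1 higher member in place of 0 (Myoz1), 0 to 4 members passed the adjusted threshold with 1 array left out, and 0 to 4 partner genes were higher.

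With signals raised to background, Myoz1 and Tcap took the array background itself on all 6 arrays. Their differences were therefore identical, at 0.10 for MyoD + Dox against uninduced cells and -0.027 for uninduced against non-transduced + Dox cells. Both counted as a turn of sign for Myoz1, but they give only the difference between array backgrounds and say nothing about the gene. With 1 array left out, differences between MyoD + Dox and non-transduced + Dox cells ran from -1.48 to 2.09 for Myoz2, -0.14 to 2.39 for Ldb3, -0.24 to 1.77 for Actn2, -1.25 to 1.85 for Actn3 and -2.002 to 0.14 for Pdlim3. Between MyoD + Dox and uninduced cells Pdlim3 ran from -0.14 to 2.36. Between uninduced and non-transduced + Dox cells the range was -0.16 to 0.26 for Pdlim5, -0.74 to 0.18 for Myot and -0.37 to 0.040 for Tcap, and it was -5.60 to -2.03 for Myoz2, -3.26 to -0.73 for Ldb3, -3.31 to -1.22 for Actn2 and -3.92 to -0.82 for Actn3.

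The replicate numbers were not taken as pairs. Deviations of same-numbered arrays correlated at -0.345 for uninduced and non-transduced + Dox cells, 0.410 for MyoD + Dox and non-transduced + Dox cells and -0.054 for MyoD + Dox and uninduced cells. With the number as a replicate block, 5 members were higher in MyoD + Dox than in uninduced cells and 1 than in non-transduced + Dox cells at an unadjusted p, and 0 passed after adjustment. The shares of all genes higher were 3.79% and 1.53%. A crossed pairing of the uninduced numbers, chosen after seeing the data, gave 6 and 2, beside 6.22% and 2.01% of all genes, and 0 after adjustment.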
